A study of Mus musculus with 101 samples.

Results

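Mouse mammary tumours with a high-level gain of Yap1 were compared with tumours with a high-level gain of Met, over the genome outside those gains, in histology and in broad copy-number change. The tumours came from the genotypes KB1(L1363P)P and KP. Of 42 tumours of these genotypes, 21 had a Yap1 segment value of at least 1 with Met under 1 and are called Yap1-amplified. Another 10 had a Met segment value of at least 1 with Yap1 under 1 and are called Met-amplified. The remaining tumours were 2 with both genes at 1 or more, which were left out, and 9 with neither. The whole series held 98 tumours and 3 spleens, measured by low-coverage sequencing of genomic DNA in bins of 20 kb.

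The Yap1-amplified tumours were 11 of genotype KB1(L1363P)P and 10 of genotype KP. The Met-amplified tumours were 6 of genotype KB1(L1363P)P and 4 of genotype KP. In the published models of these names, Cre recombinase under the keratin 14 promoter deletes conditional Trp53 alleles in epithelial cells, so loss of Trp53 is common to both genotypes. KB1(L1363P)P tumours carry in addition the Brca1 p.L1363P variant in the coiled-coil domain through which the protein binds PALB2. The labels give neither age nor treatment and name no animal, so every p-value measures the spread between tumours as deposited, which may be partly technical. KB1(L1363P)P replicates 23 and 24, both Met-amplified, share a number in their titles.

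Yap1 is a transcriptional coactivator held in the cytoplasm by the kinases of the Hippo pathway, and in the nucleus it drives growth genes through the TEAD factors. Met is the receptor tyrosine kinase for hepatocyte growth factor and signals through Ras, PI3K and Src family proteins. Both genes are known targets of focal amplification in mouse mammary tumours that lack Trp53. A sarcomatoid tumour is made of spindle-shaped, mesenchymal-looking cells, a carcinosarcoma mixes such cells with epithelial ones, and an adenocarcinoma is glandular and epithelial.

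Values are log2 segment values, the level of a stretch of chromosome relative to the rest of the same tumour's genome, with 0 as neutral. In a bulk tumour, fewer cells carrying a change and fewer copies changed per cell cannot be told apart. The files give no read counts, so the depth is unknown. The spread between neighbouring log2 ratios stands in for it, and was 0.0737 to 0.0960 (median 0.0810) in Yap1-amplified and 0.0749 to 0.144 (median 0.0818) in Met-amplified tumours. The highest, 0.144, was in KP replicate 8.

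The tumours were chosen by the segment values of Yap1 and Met, which are therefore given as a description, with no test. Yap1 (chr9:7931999-8004638, mm10) had segment values of 3.28, 4.48 and 5.20 (lowest, median and highest) in Yap1-amplified tumours, against -0.53, -0.08 and 0.64 in Met-amplified tumours. On the authors' copy score, where 2 is neutral, the Yap1-amplified tumours stood at 19, 45 and 73. Met (chr6:17463349-17573980) lay between -0.05 and 0.09 in Yap1-amplified tumours, against 3.25, 4.25 and 5.44 in Met-amplified tumours, whose copy scores were 19, 38 and 87. No tumour lay near the threshold: the nearest values to 1 were 0.64 (KP replicate 6, Met-amplified) and 2.95 (KB1(L1363P)P replicate 16, both genes) for Yap1. For Met they were 0.25 (KB1(L1363P)P replicate 19, neither gene) and 3.25 (KB1(L1363P)P replicate 15, Met-amplified). The spleens stood at 0 for both genes to within 0.00156.

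The Yap1 gain was a run of 13, 36 and 58 neighbouring genes at 1 or more (lowest, median and highest) over 1.22, 3.45 and 6.48 Mb. With the 2 tumours amplified for both genes added, 23 tumours carried it. The stretch gained in all 23 was chr9:7751672-8181112, 0.429 Mb with 10 genes, among them Yap1, Birc2 and Birc3, which encode inhibitors of apoptosis, Tmem123, Cep126 and Cfap300. Its proximal neighbours Mmp7 to Mmp13, a cluster of genes for matrix-degrading metalloproteinases, and Dync2h1, a cilium motor subunit, were gained in 22 of 23. The exception, KB1(L1363P)P replicate 20, had them at 0.43. On the distal side, Trpc6, a calcium-permeable channel, was at 1 or more in 17 of the 21 Yap1-amplified tumours, Pgr, the progesterone receptor, in 15, and Cntn5, a neural adhesion protein, in 9.

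The Met gain held 17, 31 and 139 genes over 1.60, 3.43 and 15.1 Mb. The stretch common to the 12 tumours with it, those with both genes included, was chr6:17281185-18322770, 1.04 Mb with 13 genes. It holds Met, the caveolin genes Cav1 and Cav2 of membrane pits, the actin-capping subunit Capza2, the Wnt ligand gene Wnt2 and the chloride channel gene Cftr. Tes, a focal adhesion protein on the proximal side, was at 1 or more in 8 of the 10 Met-amplified tumours and Mdfic, a transcriptional regulator, in 5. Foxp2, a forkhead factor, was at 1 or more in 3, with a median of 0.33 and a range of -0.85 to 2.67. The longest run, 15.1 Mb, was in KB1(L1363P)P replicate 15, which also had the lowest Met value of the class.

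**Figure D1:**
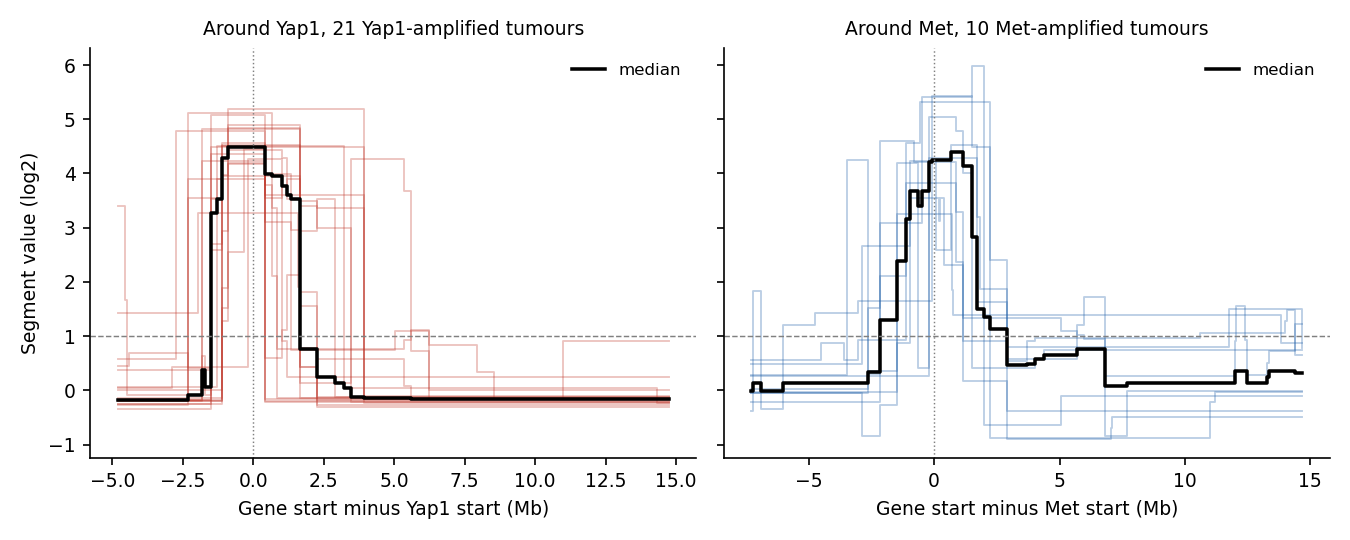
Segment value (log2) of each placed gene against its distance in Mb from the start of Yap1 (left, 21 Yap1-amplified tumours) and of Met (right, 10 Met-amplified tumours). Thin lines are tumours, the black line is their median and the dashed line marks a segment value of 1. The median falls below 1 within a few Mb on both sides of each gene, while single tumours stay above it further out.

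The union of all such runs was left out of every comparison below: chr9:3136345-11528402 (64 genes) and chr6:11900372-31337395 (163 genes). This left 32464 genes with a known position on the autosomes and X. Genes with no known position could not be assigned to the runs, and counts over all genes include them.

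Histology differed between the classes. By the labels, the 21 Yap1-amplified tumours comprised 18 sarcomatoid tumours, 2 carcinosarcomas and 1 adenocarcinoma. The 10 Met-amplified tumours comprised 2 sarcomatoid tumours, 6 carcinosarcomas and 2 adenocarcinomas. The sarcomatoid share was 85.7% in Yap1-amplified and 20% in Met-amplified tumours, a difference of 65.7 percentage points (Fisher's exact test, two-sided, p = 0.000732, adjusted over 3 such tests 0.0022).

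Within KP tumours, 9 of 10 Yap1-amplified and 1 of 4 Met-amplified tumours were sarcomatoid (Fisher's exact test, p = 0.041, adjusted 0.123). Within KB1(L1363P)P tumours the counts were 9 of 11 and 1 of 6 (Fisher's exact test, p = 0.0345, adjusted 0.104). The differences in the single genotypes, 65 and 65.2 percentage points, were close to that over both genotypes, and neither passed on its own.

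The labels also give an epithelial percentage. It averaged 5.10 ± 21.8 in Yap1-amplified tumours and 72.3 ± 38.9 in Met-amplified tumours (SD, n = 21 and 10), with medians of 0 and 87.5 (permutation test, two-sided, adjusted p = 8.4e-05). Of the Yap1-amplified tumours, 18 were at 0, KB1(L1363P)P replicates 11 and 2 were at 2 and 5, and KP replicate 5 was at 100. Of the Met-amplified tumours, KB1(L1363P)P replicate 6 and KP replicate 14 were at 0 and the other 8 were at 75 to 100.

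The genotypes were spread over both classes: 11 of 21 Yap1-amplified and 6 of 10 Met-amplified tumours were KB1(L1363P)P (Fisher's exact test, p = 1). The library series, given by the numbers that open the library names in the titles and descriptions, did not run evenly over them. Yap1-amplified tumours were 11 of series 5289, 1 of series 5490 and 9 of series 5750, against 4, 5 and 1 of the Met-amplified tumours. All 11 Yap1-amplified tumours of series 5289 were KB1(L1363P)P, so genotype and series were not independent. Series and histology were tied too. All 10 tumours of series 5750 were sarcomatoid KP tumours, and all 9 of series 5490 were carcinosarcomas or adenocarcinomas. Series 5750 held 9 of 10 Yap1-amplified and 1 of 4 Met-amplified KP tumours, so comparisons within KP also compare library series. Within series 5289, 9 of 11 Yap1-amplified and 1 of 4 Met-amplified tumours were sarcomatoid (Fisher's exact test, p = 0.0769, adjusted 0.115).

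**Figure D2:**
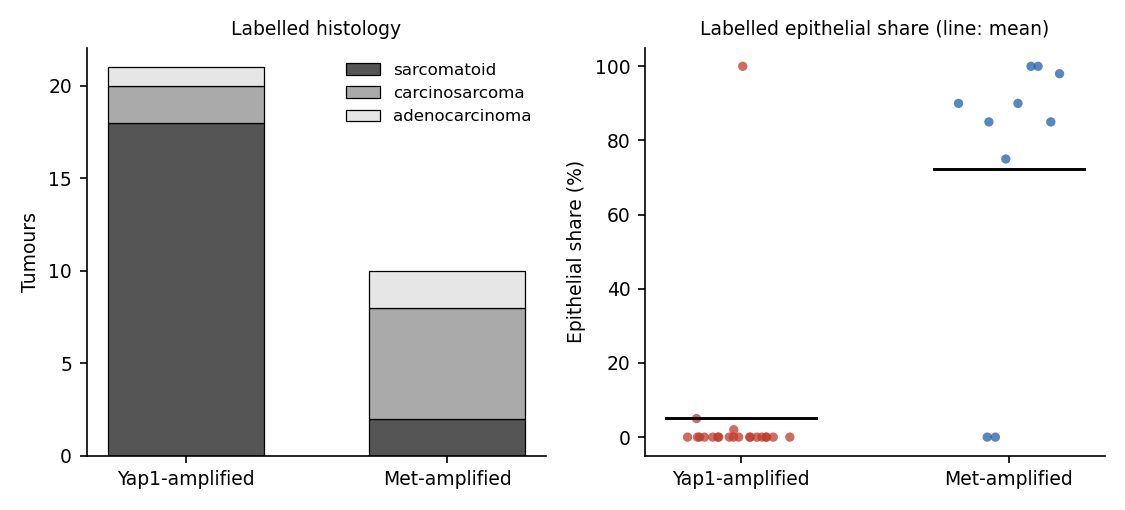
Left, number of tumours of each labelled histology in the 21 Yap1-amplified and 10 Met-amplified tumours. Right, labelled epithelial share (%) of each tumour, with a line at the class mean. In the Yap1-amplified class 1 tumour stands at 100% and the rest at 5% or less, and in the Met-amplified class 2 tumours stand at 0% and the rest at 75% or more.

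Outside their amplicons, Yap1-amplified tumours carried few copy-number calls. A gene counts as altered when its copy score differs from 2, which sets in at a segment value of 0.322 for a gain and -0.415 for a loss. Altered genes made up 0%, 0% and 5.78% (lowest, median and highest) of the genome of Yap1-amplified tumours, against 0.404%, 10.4% and 18.1% of that of Met-amplified tumours. The means were 0.966% ± 2.03 and 8.66% ± 5.94 (SD, n = 21 and 10), a difference of -7.70 percentage points (permutation test, two-sided, adjusted over 7 measures p = 8.4e-05). Of the 7 measures per tumour, the epithelial percentage included, 6 passed (85.7%).

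No gene outside the amplicons was altered in 12 of the 21 Yap1-amplified tumours, and no Met-amplified tumour was at 0. Only 4 Yap1-amplified tumours were above 1%. KP replicate 10 had 5.78%, with all genes of chromosome 8 called gained. KB1(L1363P)P replicate 9 had 5.77%, with all of chromosome 12 and 30.7% of chromosome 1 called lost. KP replicate 5, the adenocarcinoma, had 4.69%, all of it loss of chromosome X at a mean segment value of -0.93. KB1(L1363P)P replicate 20 had 3.69%, mostly a gain of 96.6% of chromosome 15. Each of these 4 carried its change on a different chromosome.

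Among the Met-amplified tumours the 8 that were not sarcomatoid had 3.27% to 18.1% of genes altered. The 2 sarcomatoid ones, KP replicate 14 and KB1(L1363P)P replicate 6, had 0.404% and 0.490%, within the range of the Yap1-amplified class.

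Losses made up most of the difference. Lost genes averaged 0.498% ± 1.58 in Yap1-amplified tumours, where 19 of 21 had none, and 6.46% ± 4.58 in Met-amplified tumours, where 2 of 10 had none (SD, permutation test, adjusted p = 8.4e-05). Gained genes averaged 0.468% ± 1.46 in Yap1-amplified tumours and 2.20% ± 2.76 in Met-amplified tumours (SD, permutation test, adjusted p = 0.0273). The call for gains rested on single Met-amplified tumours: without KP replicate 6 the difference was -1.03 points (permutation test, adjusted p = 0.134), and without KB1(L1363P)P replicate 22 it was -1.40 points (permutation test, adjusted p = 0.0733).

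Yap1-amplified tumours also had fewer steps along the chromosomes. Breakpoints, places where neighbouring genes differ in segment value, numbered 0, 8 and 32 (lowest, median and highest) in Yap1-amplified tumours and 3, 38.5 and 85 in Met-amplified tumours. The means were 9.14 ± 8.25 and 39.5 ± 24.7 (SD, permutation test, adjusted p = 8.4e-05). Large-scale transitions, breaks between stretches of at least 10 Mb and a count used as a mark of homologous recombination deficiency in tumours, averaged 1.05 ± 1.83 in Yap1-amplified and 5.90 ± 3.96 in Met-amplified tumours (SD, permutation test, adjusted p = 8.4e-05). Of the Yap1-amplified tumours 14 had none, and every Met-amplified tumour had at least 1. The ranges overlapped in both counts: KP replicate 1, Met-amplified and with 13.2% of genes altered, had only 3 breakpoints and 1 transition.

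Over both genotypes the extent of small shifts did not pass the test. Genes more than 0.1 away from 0 made up 14.8%, 32.8% and 61.9% in Yap1-amplified tumours and 23.6%, 36.6% and 79.1% in Met-amplified tumours (permutation test, adjusted p = 0.22). The difference of the means was -7.84 points over both genotypes, -25.1 points in KP and 5.14 points in KB1(L1363P)P tumours, of which that in KP tumours passed (exact permutation tests, adjusted p = 0.0245 and 0.522). The exact permutation test of the contrast between genotypes gave p = 0.0442, or 0.309 adjusted over 7 measures, and none of the other 6 measures had a smaller p in that test.

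Histology moved with the class, and each measure was therefore also compared within it. Among sarcomatoid tumours, altered genes averaged 0.865% in 18 Yap1-amplified and 0.447% in 2 Met-amplified tumours (exact permutation test, adjusted p = 1). Breakpoints averaged 8.72 in those Yap1-amplified tumours and 25 in those Met-amplified tumours (exact permutation test, p = 0.0211, adjusted 0.147). Among the other histologies, altered genes averaged 1.57% in 3 Yap1-amplified and 10.7% in 8 Met-amplified tumours (exact permutation test, p = 0.0121, adjusted 0.0848). With 2 or 3 tumours on one side, class and histology cannot be told apart in these data.

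Within 1 genotype the altered share differed in the same direction, although in KP tumours class and library series were closely tied. In KP tumours it averaged 1.08% ± 2.21 in 10 Yap1-amplified and 10.5% ± 7.47 in 4 Met-amplified tumours (SD, exact permutation test, adjusted p = 0.0105). In KB1(L1363P)P tumours it averaged 0.861% ± 1.97 in 11 Yap1-amplified and 7.41% ± 5.03 in 6 Met-amplified tumours (SD, exact permutation test, adjusted p = 0.00481). Within library series 5289 it averaged 0.861% in 11 Yap1-amplified and 7.35% in 4 Met-amplified tumours (exact permutation test, adjusted p = 0.0385).

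**Figure D3:**
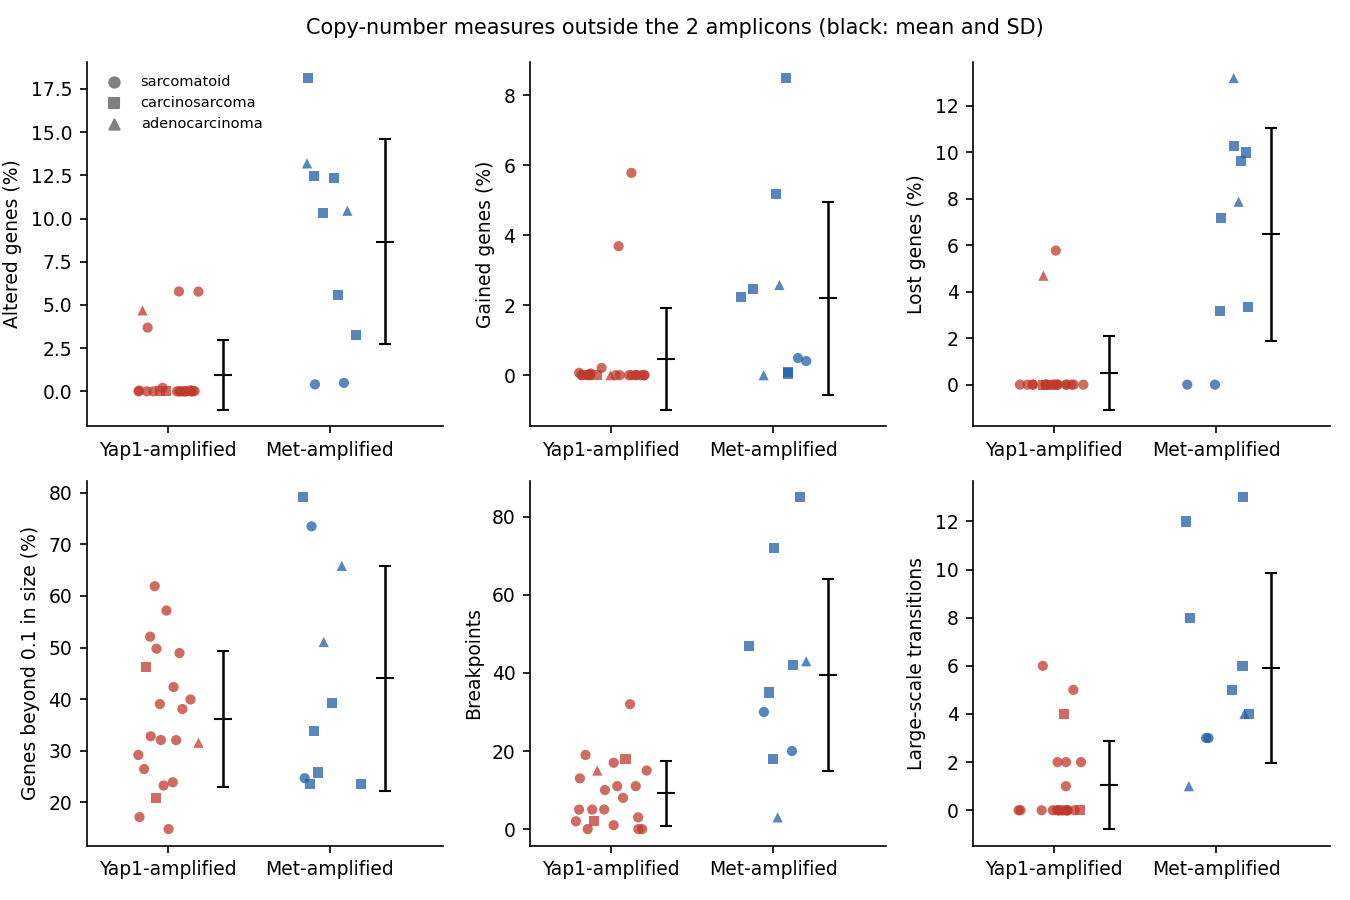
Copy-number measures of each tumour outside the 2 amplicons: altered, gained and lost genes (%), genes more than 0.1 from 0 (%), breakpoints and large-scale transitions (numbers), in 21 Yap1-amplified and 10 Met-amplified tumours. Circles are sarcomatoid tumours, squares carcinosarcomas and triangles adenocarcinomas, and black bars show mean and SD. Nearly all Yap1-amplified tumours lie at or near 0 for altered and lost genes, and the 2 sarcomatoid Met-amplified tumours lie with them.

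Of the 20 chromosome means outside the amplicons, 7 differed between the classes (35%, permutation tests, adjusted over 20 chromosomes). Chromosomes 1 and 2 were lower in Yap1-amplified tumours, and chromosomes 4, 5, 12, 14 and 16 were higher there.

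Chromosome 12 showed the largest of these differences. Its mean segment value was -0.52, -0.23 and 0.19 (lowest, median and highest) in Yap1-amplified tumours and -0.87, -0.46 and -0.24 in Met-amplified tumours. Both classes were thus below 0, with 20 of 21 and 10 of 10 tumours, and 13 Yap1-amplified tumours stood above every Met-amplified one. The means were -0.22 ± 0.14 and -0.50 ± 0.22, a difference of 0.28 (SD, permutation test, adjusted p = 0.000467). More than 50% of its genes were called lost in 1 of 21 Yap1-amplified tumours, KB1(L1363P)P replicate 9, and in 8 of 10 Met-amplified tumours. Those 8 were the ones that were not sarcomatoid. In the 2 sarcomatoid Met-amplified tumours the chromosome stood at -0.24 and -0.26, against a mean of -0.21 in the 18 sarcomatoid Yap1-amplified tumours.

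Chromosome 14, which carries Rb1, the retinoblastoma gene, was lower in Met-amplified tumours. Its mean was -0.04 ± 0.09 in Yap1-amplified tumours and -0.27 ± 0.24 in Met-amplified tumours (SD, permutation test, adjusted p = 0.0009). No Yap1-amplified tumour had a loss call anywhere on it. In the Met-amplified class 4 tumours did, and 3 of them, KB1(L1363P)P replicate 23 and KP replicates 6 and 8, had lost more than 50% of its genes.

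Chromosome 5 stood at -0.03, 0.07 and 0.21 in Yap1-amplified tumours and at -0.46, -0.04 and 0.002 in Met-amplified tumours. The means were 0.08 ± 0.07 and -0.10 ± 0.15 (SD, permutation test, adjusted p = 0.0002), and 20 of 21 Yap1-amplified tumours lay above the highest Met-amplified one. Chromosome 4 averaged -0.02 ± 0.06 in Yap1-amplified and -0.17 ± 0.16 in Met-amplified tumours (SD, permutation test, adjusted p = 0.00173). For chromosome 16 the means were 0.003 ± 0.055 in Yap1-amplified and -0.10 ± 0.18 in Met-amplified tumours (SD, permutation test, adjusted p = 0.0338). This call was the weakest of the 7: without KB1(L1363P)P replicate 15 the difference was 0.060 in place of 0.106 (permutation test, adjusted p = 0.144). It was also lost without KB1(L1363P)P replicate 5, 14 or 22 or KP replicate 6, in either genotype alone and after centring (permutation tests, adjusted p = 0.0510 to 0.175).

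Chromosome 1 ran the other way. It stood at -0.32, -0.12 and 0.08 in Yap1-amplified tumours and at -0.05, 0.007 and 0.28 in Met-amplified tumours, and 19 of 21 Yap1-amplified tumours lay below the lowest Met-amplified one. The means were -0.12 ± 0.08 and 0.06 ± 0.11 (SD, permutation test, adjusted p = 0.0002). Chromosome 2 averaged -0.11 ± 0.08 in Yap1-amplified and 0.04 ± 0.14 in Met-amplified tumours (SD, permutation test, adjusted p = 0.0014). These shifts were mostly too small for a call: only KB1(L1363P)P replicate 9 had a loss call on chromosome 1, and no tumour of either class had one on chromosome 2. The largest gain on either was in KP replicate 6, Met-amplified, with 53% of chromosome 2 called gained.

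Several low-level shifts recurred among the Yap1-amplified tumours themselves. Chromosome 15 was above 0 in all 21, and above 0.1 in 14, with a mean of 0.14 ± 0.08. Chromosomes 9 (outside the amplicon), 12, 2 and 7 were each below 0 in 20, and below -0.1 in 18, 18, 15 and 10. In the Met-amplified tumours chromosome 15 averaged 0.11 ± 0.17, chromosome 9 stood at -0.21 ± 0.21 and chromosome 7 at -0.11 ± 0.15 (SD), and the permutation tests of these 3 chromosomes gave adjusted p-values of 0.777, 0.498 and 0.958.

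The rest of chromosome 6 was uneven in Met-amplified tumours. Outside the amplicon a gain call was present in 1 of 21 Yap1-amplified and 6 of 10 Met-amplified tumours, and a loss call in 0 of 21 and 5 of 10. KP replicate 6 had 66.4% of those genes gained and 29.4% lost, and KP replicate 1 had 96.1% lost. The chromosome's mean was 0.02 ± 0.06 in Yap1-amplified and -0.06 ± 0.21 in Met-amplified tumours (SD, permutation test, adjusted p = 0.19).

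Within 1 genotype the adjusted threshold was passed by chromosomes 1, 4, 5, 12 and 17 in KP tumours and by chromosomes 1, 2, 5, 6, 12 and 14 in KB1(L1363P)P tumours (exact permutation tests). In the exact permutation test of the class difference between the genotypes, 0 of 20 chromosomes passed after adjustment and 1, chromosome 17, had an unadjusted p under 0.05 (p = 0.0437). By the same exact tests 0 chromosomes passed within sarcomatoid tumours, within the other histologies or within library series 5289, with 4, 2 and 6 at an unadjusted p under 0.05. In the 2 histology sets only 190 and 165 arrangements of the tumours exist. A single chromosome could therefore not have passed there after adjustment, and the count of 0 says little. The sign was the same for 5 of the 7 chromosomes in sarcomatoid tumours and for 7 of 7 in each of the other sets.

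**Figure D4:**
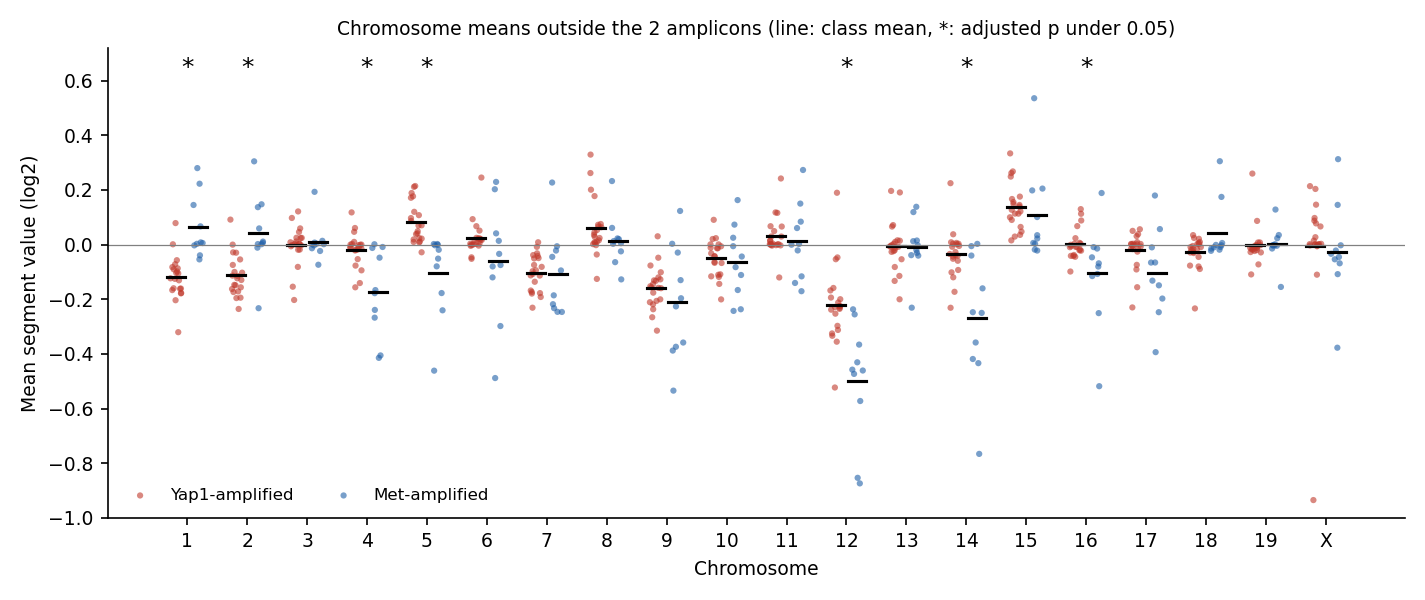
Mean log2 segment value of each chromosome outside the 2 amplicons, 1 point per tumour, with a line at the class mean, for 21 Yap1-amplified (red, left of each pair) and 10 Met-amplified tumours (blue, right). Asterisks mark the 7 chromosomes with an adjusted permutation p under 0.05. Met-amplified tumours reach further below 0 on chromosomes 4, 12 and 14, and Yap1-amplified tumours sit lower on chromosomes 1 and 2.

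**Figure D5:**
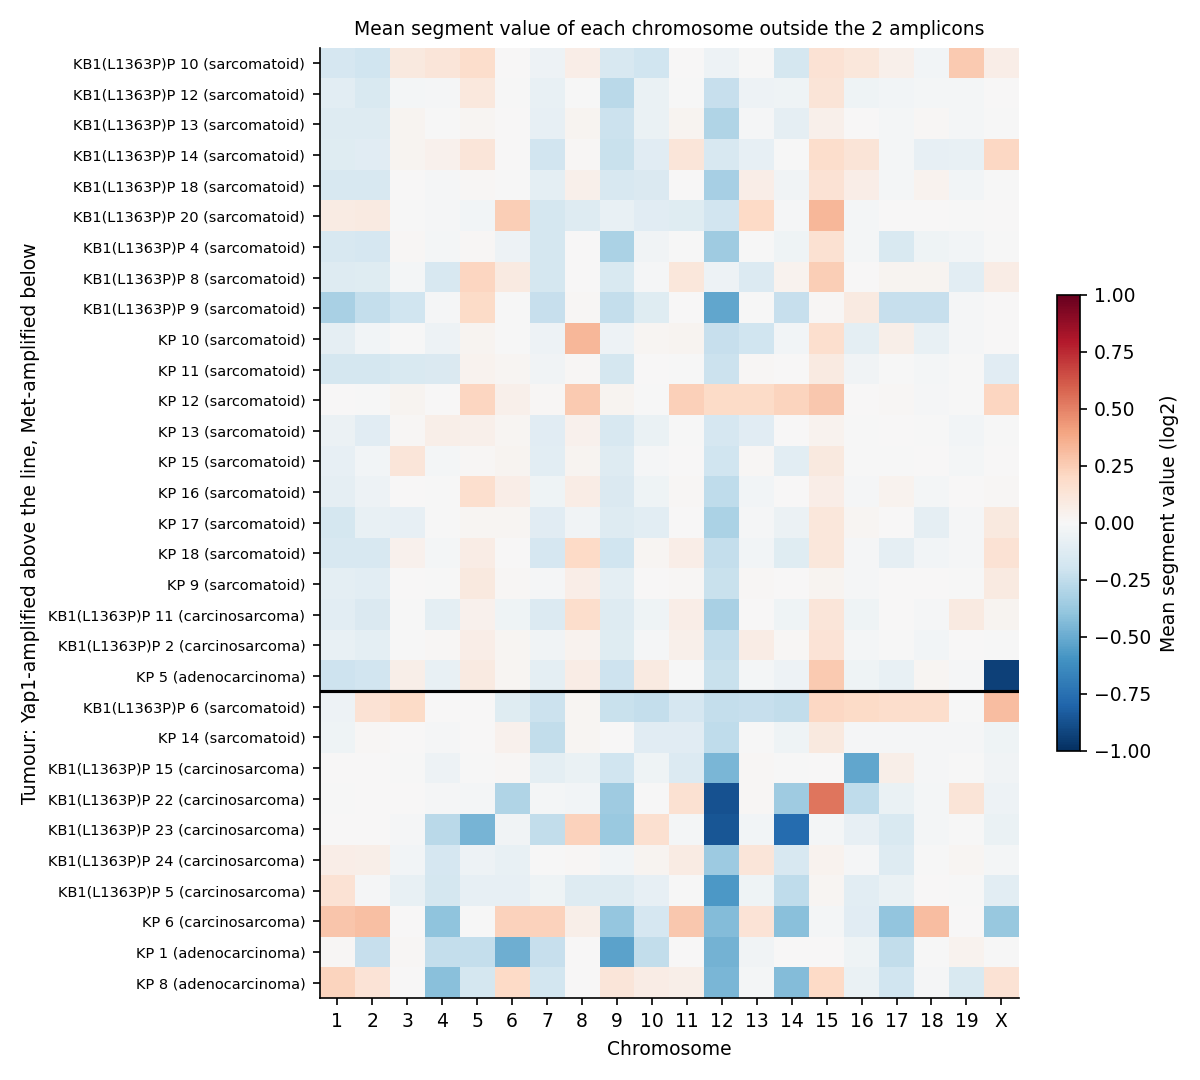
Mean log2 segment value of each chromosome (columns) in each tumour (rows, with histology), Yap1-amplified tumours above the line and Met-amplified below it, red above 0 and blue below. The Yap1-amplified rows resemble each other in pale shifts, with single strong changes such as chromosome X in KP replicate 5, and the strongest changes below the line lie in the rows that are not sarcomatoid.

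A further high-level gain, a segment value of at least 1 outside the amplicons, was found in 4 of 21 Yap1-amplified and 5 of 10 Met-amplified tumours (19% and 50%, Fisher's exact test, p = 0.105, adjusted 0.157). In 3 of the Yap1-amplified tumours, KP replicates 10, 12 and 17, it lay on chromosome 9. In KB1(L1363P)P replicate 20 it lay on chromosome 6.

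Most of the further gains in Met-amplified tumours lay on chromosome 6. In KB1(L1363P)P replicate 15 they included Braf, a kinase below Ras, in a run that reached 1.43 over chr6:39136620-39725658, and a stretch of chromosome 12. The others were KB1(L1363P)P replicates 5 and 6 and KP replicates 8 and 14. KP replicate 8 also had a run on chromosome 12, which reached 1.59 over chr12:32919384-35949737. With each tumour's own amplified chromosome left out, the difference was -15.2 points in place of -31 points (Fisher's exact test, adjusted p = 0.237). A loss below -1 occurred in 1 Met-amplified tumour, KB1(L1363P)P replicate 23, at -1.54 over chr14:98922573-121283744, which holds Spry2, an inhibitor of receptor tyrosine kinase signalling. No Yap1-amplified tumour had a loss of that depth.

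Gene by gene, limma was fitted on the segment values of all 43513 genes with the 42 tumours in 4 classes. Outside the amplicons 12565 of 43284 genes (29%) differed at an adjusted p under 0.05, 6397 higher in Yap1-amplified tumours (14.8%) and 6168 lower (14.3%). The median difference over these genes was 0.03. Genes of a chromosome share segments and are not independent, so these counts depend on the size of the chromosomes. Of the 32464 genes with a position 9203 (28.3%) were called, 4605 higher (14.2%) and 4598 lower (14.2%), and they lay on 8 chromosomes: 2074 of 2080 on chromosome 1 and 2508 of 2565 on chromosome 2, all lower in Yap1-amplified tumours. Higher there were 1071 of 1309 on chromosome 14, 909 of 1235 on chromosome 12, 1249 of 1805 on chromosome 5, 878 of 1891 on chromosome 4 and 99 of 1548 on chromosome 17. Chromosome 6 had 399 higher and 16 lower of 1635. With amplicon edges at 0.32 the lower count over all genes was 6152 in place of 6168, so these 16 lay in the gained flank of the amplicon. On chromosome 16 limma called 0 of 1061 genes.

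With histology as a covariate, 4380 of the 32464 placed genes (13.5%) were called, and they lay on chromosomes 1 (1683), 2 (2218) and 6 (479). Genes named below on chromosomes 4, 5, 12 and 14 were therefore not called in that fit. With library series as a covariate the count was 5346 (16.5%), on chromosomes 1 (1944), 2 (2217), 5 (303), 6 (430) and 12 (452). None lay on chromosomes 4, 14 or 17 in that fit. Among sarcomatoid tumours, 18 against 2, limma called 8493 of all 43284 genes (19.6%), 5155 higher and 3338 lower in Yap1-amplified tumours. Within 1 genotype it called 8599 of these genes (19.9%) in KP and 6384 (14.7%) in KB1(L1363P)P tumours. In the tumours other than sarcomatoid, 3 against 8, limma called 0 placed genes (0%) and 16 of all 43284 genes (0.037%), with 3511 at an unadjusted p under 0.05. All 16 thus had no known position, and whether they lie in the amplicons is unknown. Fisher's exact test of loss calls per gene passed for 564 placed genes (1.74%), all on chromosome 12. That of gain calls passed for 0 placed genes (0%), with 500 at an unadjusted p under 0.05. Over all 43284 genes the test passed for 808 in loss calls and 32 in gain calls. Those 32 had no known position, and whether they lie in the amplicons is unknown.

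Of Trp53, Brca1 and Brca2, the genes engineered in the models of the series, 0 of 3 were called, against 29% of all genes, a count too small to read against that share. Brca2 is engineered in neither genotype compared here. Trp53 had mean segment values of 0.03 ± 0.08 in Yap1-amplified and -0.003 ± 0.126 in Met-amplified tumours (SD, limma, adjusted p = 0.757). For Brca1 the means were 0.03 ± 0.07 in Yap1-amplified and 0.06 ± 0.13 in Met-amplified tumours (SD, limma, adjusted p = 0.936), and for Brca2 the adjusted p was 0.181. A deletion of a few exons or a variant of a single residue is below the resolution of these bins, so these values do not test the Trp53 and Brca1 alleles.

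Called genes on chromosome 6 included some distal to the amplicon. Cntn4, a neural adhesion protein, stood at -0.05, 0.02 and 0.20 (lowest, median and highest) in Yap1-amplified tumours and at -0.86, -0.36 and -0.02 in Met-amplified tumours. The difference was 0.40 ± 0.07 (SE, limma, adjusted p = 0.000279, and 0.0194 with histology as a covariate). It was called lost in 0 of 21 Yap1-amplified and 5 of 10 Met-amplified tumours. The ranges overlapped only between -0.05 and -0.02.

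Of 23 Hippo pathway genes outside the amplicons, 6 were higher and 2 lower in Yap1-amplified tumours (34.8%, median difference 0.04, against 29% and 0.03 over all genes). Mob1a, an adaptor that activates the Lats kinases, lies on chromosome 6, which also carries Met. It stood at -0.29, 0.004 and 0.09 in Yap1-amplified tumours and at -0.86, -0.34 and -0.02 in Met-amplified tumours. Its difference was 0.36 ± 0.06 (SE, limma, adjusted p = 0.000279), with loss calls in 0 and 5 tumours. Vgll4, which competes with Yap1 for the TEAD factors, differed by 0.31 ± 0.07 on the same chromosome (SE, limma, adjusted p = 0.00111).

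Sav1, the scaffold of the Hippo kinases, and Frmd6, an upstream activator, lie on chromosome 12 in 1 segment. Both stood at -0.52, -0.23 and 0.19 in Yap1-amplified tumours and at -0.87, -0.60 and -0.24 in Met-amplified tumours, a difference of 0.36 ± 0.08 (SE, limma, adjusted p = 0.00143). They were called lost in 1 of 21 Yap1-amplified and 8 of 10 Met-amplified tumours (Fisher's exact test, adjusted p = 0.00609). With histology as a covariate the limma difference was 0.18 (adjusted p = 0.266). Lats2 and Mob1b were higher too, and Stk4 and Ptpn14, on chromosomes 2 and 1, were lower.

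Of 33 genes of HGF and Met signalling, 6 were higher and 2 lower in Yap1-amplified tumours (24.2%, median difference 0.02). Sos2, an exchange factor that loads Ras, lies in the segment of Sav1 and had the same values. Hgfac, the protease that activates hepatocyte growth factor, averaged 0.08 ± 0.07 in Yap1-amplified and -0.14 ± 0.27 in Met-amplified tumours (SD, limma, adjusted p = 0.00414). Hgf itself, the ligand, differed by 0.22 on the same chromosome 5. Without KB1(L1363P)P replicate 23 both differed by 0.14 (limma, adjusted p = 0.00771 for Hgfac and 0.00833 for Hgf). Neither was called with histology as a covariate. Spry2 differed by 0.35 ± 0.10 (SE, limma, adjusted p = 0.00726), with loss calls in 0 of 21 Yap1-amplified and 3 of 10 Met-amplified tumours. Without KB1(L1363P)P replicate 23, at -1.54, it differed by 0.22 (limma, adjusted p = 0.0338). No placed gene of its chromosome 14 was called with histology or library series as a covariate. Src, a cytoplasmic tyrosine kinase on chromosome 2, was lower by -0.15 ± 0.04 (SE, limma, adjusted p = 0.00266). Braf averaged 0.02 ± 0.03 in Yap1-amplified and 0.20 ± 0.48 in Met-amplified tumours (SD, limma, adjusted p = 0.166).

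Of 32 tumour suppressors, 7 were higher and 3 lower (31.2%, median difference 0.07). Foxp1, a forkhead factor on chromosome 6, stood at -0.29, 0.01 and 0.11 in Yap1-amplified tumours and at -0.86, -0.34 and -0.02 in Met-amplified tumours, with loss calls in 0 and 5. The difference was 0.37 ± 0.07 (SE, limma, adjusted p = 0.000465). Vhl, the substrate receptor that marks hypoxia-inducible factors for destruction, lies on chromosome 6 too. It differed by 0.31 ± 0.07 with 0 and 4 loss calls (SE, limma, adjusted p = 0.00111). Rbl1, a relative of Rb1, and Gata3, a luminal mammary transcription factor, lie on chromosome 2 and were lower by -0.15 ± 0.04 and -0.16 ± 0.04 (SE, limma, adjusted p = 0.00266 and 0.00285).

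Of 40 known amplification targets, 7 were higher and 4 lower (27.5%, median difference 0.03). Among the lower ones were Bcl2 and Bcl2l1, which block apoptosis, and Mdm4, an inhibitor of p53. Bcl2 averaged -0.13 ± 0.11 in Yap1-amplified and 0.08 ± 0.12 in Met-amplified tumours (SD, limma, adjusted p = 0.00266). Among the higher ones were Kit, Kdr, Pdgfra and Fgfr3, receptor tyrosine kinase genes on chromosome 5, with Mycl and Jun.

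Of 32 homologous recombination genes, 5 were higher and 6 lower (34.4%, median difference 0.05). Rad51b, a recombination protein on chromosome 12, differed by 0.36 ± 0.08 (SE, limma, adjusted p = 0.000568) and was called lost in 1 of 21 Yap1-amplified and 8 of 10 Met-amplified tumours. With histology as a covariate limma did not call it. Fancd2, a Fanconi anaemia protein on chromosome 6, differed by 0.31 ± 0.07 with 0 and 4 loss calls (SE, limma, adjusted p = 0.00111). Bard1, the partner of Brca1, was lower by -0.19 ± 0.05 and Parp1, a sensor of DNA breaks, by -0.17 ± 0.04 (SE, limma, adjusted p = 0.00245 and 0.0026), both on chromosome 1. In each of the 5 lists the share called lay near the 29% of all genes, and the members that passed followed the chromosome they lie on.

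With histology as a covariate the genes still called numbered 4 of the amplification targets, 5 of the tumour suppressors, 3 of the Hippo genes, 3 of the HGF and Met signalling genes and 5 of the homologous recombination genes. Those counts were 10%, 15.6%, 13%, 9.09% and 15.6% of the lists, against 13.8% of all genes in the same fit (5969 of 43284). In the tumours other than sarcomatoid limma called 0 of the listed genes and 0 of the 32464 placed genes (0%). The 0.037% of all genes called there had no known position. The count of 0 therefore says nothing particular to the lists.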

How the data were processed

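The 98 tumours and 3 spleens were profiled from shallow reads of genomic DNA. Counts of reads in 20 kb bins were adjusted by the authors for GC content and mappability after alignment with BWA, per the labels' protocols. The submitters' processing notes name mm10, cutadapt 2.5, BWA 0.7.17, SAMtools 1.10 and Picard, while the protocol text names a human build. The authors deposited per gene log2 ratios, log2 segment values and a copy score, an integer that equals the rounded copy number from the segment value in 99.9919% of cells.

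Classes, gene lists and members were chosen with earlier results of these data known, and the library series are the numbers that open the library names in the titles and descriptions. Genes were placed by RefSeq's GRCm38.p6 table: 32691 of 43513 matched, 30 of them through an older symbol, and 10822 had no position. Class means per tumour were compared by permutation (100000 resamples, exact enumeration with fewer than 10 tumours in a class, and exact enumeration in place of the planned resamples for the difference between genotypes). Shares were compared by Fisher's exact test and genes by limma 3.58.1 (lmFit, eBayes), each with Benjamini-Hochberg adjustment and a threshold of 0.05. Large-scale transitions were counted between segments of at least 10 Mb after segments under 3 Mb were dropped and neighbours within 0.1 joined. Alternatives were the amplified level, genotype, histology, library series, chromosomes or tumours left out, call thresholds, centring, covariates and the log2 ratios. Named were the amplicon genes, the engineered genes, the called gene with the smallest adjusted p of up to 6 chromosomes, the 4 genes of smallest p of each list, and listed genes at 1 or more or -1 or less in a tumour. Rb1, Hgf, Lats2 and the other list members were named after their values were seen, and some genes are not reported here. Python 3.11.15, SciPy 1.17.1 and R 4.3.3 were used, and the tests were tested on simulated data.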

Additional observations from a re-analysis of the deposited data

Results flagged for a closer look

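Of 52 sets of 4 to 10 tumours examined, 11 held a tumour far from the rest of its set by Dixon's criterion. Its nominal rate of about 1 of 20 sets holds for normally distributed values, so 11 of 52 is not compared with it. In the Met-amplified class (10 tumours) the flagged values were chromosome means. KB1(L1363P)P replicate 6, a sarcomatoid tumour, stood at 0.193 on chromosome 3 (nearest other tumour 0.0136) and at -0.231 on chromosome 13 (nearest -0.0406). KB1(L1363P)P replicate 23 stood at -0.462 on chromosome 5 (nearest -0.241) and at 0.232 on chromosome 8 (nearest 0.0609). KP replicate 6 stood at 0.227 on chromosome 7 (nearest -0.00635), and KB1(L1363P)P replicate 22 at 0.535 on chromosome 15 (nearest 0.205). KP replicate 8, the tumour with the noisiest profile, stood at -0.155 on chromosome 19 (nearest -0.0146).

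Among the 6 Met-amplified KB1(L1363P)P tumours, replicate 6 had 73.5% of genes more than 0.1 from 0 (nearest 39.2%). Among the 10 Yap1-amplified KP tumours, replicate 10 had 5.78% of genes gained (nearest 0.206%) and 2 large-scale transitions (nearest 0), and replicate 5, the adenocarcinoma, had 4.69% lost (nearest 0%). For transitions and lost genes all other tumours of the set stood at 0, where any single value above 0 is flagged.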

How the results depend on the processing

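Among sarcomatoid tumours (18 against 2) the difference was 0.42 points for altered, 0.098 for gained and 0.321 for lost genes, opposite in sign to the whole set, and breakpoints (-16.3) and transitions (-2) no longer passed. Among the other histologies (3 against 8) the differences were -9.15 (altered), -2.63 (gained), -6.52 (lost), -31.5 (breakpoints) and -5.29 (transitions), and none passed. In library series 5289 breakpoints (-13.6), transitions (-3.43) and gained genes (-0.423) no longer passed. The gained share also missed the threshold with amplification from 0.5 (-1.03), in KP (-2.26) and KB1(L1363P)P (-1.41), without chromosomes 6 and 9 (-1.14), with amplicon edges at 0.32 (-1.18), centred (-1.59) and with calls from 0.2 (-4.88). Genes beyond 0.1 from 0 differed by -25.1 points in KP (exact permutation test, adjusted p = 0.0245) and by 5.14 in KB1(L1363P)P. The sarcomatoid difference was 65 points in KP, 65.2 in KB1(L1363P)P and 56.8 in series 5289, none past the adjusted threshold, and the share of KB1(L1363P)P tumours differed by 4.17 points outside sarcomatoid tumours and 25 in series 5289. Chromosomes that differed numbered 0 in sarcomatoid tumours, 0 in the others and 0 in series 5289. In the first 2 sets no single chromosome could have passed after adjustment. Of 43284 genes, limma called 8599 in KP, 6384 in KB1(L1363P)P, 8493 in sarcomatoid tumours, 16 in the others and 801 in series 5289. With a covariate it called 5969 (histology) and 7344 (library series), and Fisher's exact tests of gain and loss calls passed for 840. All these counts include genes with no known position. The cause of these changes was not tested. The subsets held fewer tumours, while the fits with a covariate and the Fisher's exact tests per gene used all 21 and 10. Of 25 named genes called outside the amplicons, all 25 lost the call in the other histologies and 19 in series 5289. With histology as a covariate 10 lost it, and with library series 6. In KP tumours 9 lost it and in KB1(L1363P)P tumours 5. Among sarcomatoid tumours 11 lost it and 2 more, 0610025J13Rik (-0.010) and Parp1 (0.015), changed sign. All 25 kept it without any 1 tumour.

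Leaving out each of the 31 tumours in turn gave altered -8.61 to -6.64, gained -1.99 to -1.03, lost -6.68 to -5.22, beyond 0.1 -10.1 to -3.95, breakpoints -34.4 to -25.3, transitions -5.40 to -4.06, epithelial share -75.2 to -64.1, sarcomatoid share 63.5 to 74.6, KB1(L1363P)P share -14.3 to -3.17 and further high-level gains -36.5 to -25.4. Chromosomes that differed numbered 6 to 9 and called genes 11011 to 13611. Of the measures and shares only the gained share lost its call, without KP replicate 6 or KB1(L1363P)P replicate 22. Of the 7 chromosomes only chromosome 16 did, without KB1(L1363P)P replicate 5, 14, 15 or 22 or KP replicate 6 (0.060 to 0.105). Over the other alternatives, 98 of 134 values were judged unchanged. For differences this meant the same direction and side of the threshold, and for counts of chromosomes and genes only a similar size. Amplification from a level of 2 gave the same 21 and 10 tumours, so it could change nothing. Library series 5490 (1 against 5) and 5750 (9 against 1) were not run. No paired analysis was possible because the classes were set by the tumours' own values and replicate numbers do not tie tumours across them. Depth is unknown, and calls are limited to shifts past -0.415 and 0.322, so a subclonal change below them counts as none.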
